A study of Saccharomyces cerevisiae with 222 samples.

Results

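This report compares 2 strains of budding yeast that carry an activator which no GFP tether holds at Ume6: a strain with untagged Ime1 and a strain labelled as carrying untagged B112. The members are all libraries of these 2 strains in the activation domain experiment, taken by their labels: 24 of the 222 RNA-seq libraries of the series, as 3 replicates of each strain at 0, 2, 4 and 6 h after transfer to acetate sporulation medium (SPM). All 5818 genes of the table were considered and 5528 passed the filter on low counts. The study asked whether Ime1 acts by bringing an activation domain to Ume6, and the untagged strains are its controls without the GFP tether. Both strains are SK1 MATa/alpha diploids that lack the native IME1 gene, carry UME6(T99N)-3V5-aGFP on both copies and carry their transgene at HIS3 under the IME1 promoter. The study describes the T99N substitution as preventing the contact between Ime1 and Ume6. Its T99N strains with native, untagged Ime1 still sporulated at a reduced rate, so the loss of contact may not be complete. The study saw no spores in the 2 strains compared here. The aGFP part is a nanobody fused to Ume6 that binds only proteins tagged with GFP, so an untagged activator is not recruited by it. B112 is a short acidic activation domain that derives from Escherichia coli and is made here with a nuclear localization signal. The comparison therefore sets a strain with Ime1 and without the other activator against a strain with the other activator and without Ime1, and the 2 effects cannot be told apart. The same table holds the 2 tethered strains, sfGFP-IME1 and sfGFP-B112, in the same UME6(T99N)-3V5-aGFP background.

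Ime1 is the master regulator of entry into meiosis in budding yeast and is made when cells starve for nitrogen and a fermentable carbon source. Ime1 itself does not bind DNA well, and it reaches the early meiotic genes through Ume6, a zinc cluster protein that sits at the URS1 site of their promoters. During growth the same Ume6 recruits the Sin3-Rpd3 histone deacetylase and keeps these genes off. Ime2, a kinase that is among the first products of this switch, helps cells to enter premeiotic S phase, and Ndt80 later drives the meiotic divisions and spore formation.

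The allele that both strains share is shown first, because every comparison depends on it. The repair template used to make it covers 60 bases of the UME6 coding sequence, on the minus strand of chromosome IV at 867201 to 867260 of the R64 reference, and codons 99 and 100 are in capitals.
UME6 T99N repair template: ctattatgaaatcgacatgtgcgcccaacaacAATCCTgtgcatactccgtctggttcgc
Aligned to the reference, the template had 2 mismatches. Bases 33 to 35 replaced ACT by AAT, which gives T99N, and bases 36 to 38 replaced CCC by CCT, a change that leaves the protein as it is (P100P).

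The 24 libraries held between 6456840 and 23448800 estimated counts. Spearman correlations of TPM (transcript abundance scaled to length and to a fixed total per library) between replicates were at least 0.962 at 2, 4 and 6 h in both strains. At 0 h, replicate 2 of IME1 stood apart, with correlations of 0.849 to 0.907 with the other 5 libraries of that time, against 0.928 to 0.986 among those 5. Results at 0 h are therefore given with and without it. The TMM factor, which scales library size for composition, was 1.50 in this library and 0.646 to 0.771 in the other 5. Fold changes use this scaling, while statements on overlap at a time use TPM, so the 2 can differ at 0 h. They can also differ between the tethered strains at later times. UME6 at 6 h had a mean of 76.9 TPM in sfGFP-IME1 and 96.2 TPM in sfGFP-B112, beside a fitted log2 fold change of 0.45. Summed over 6 genes of cells in meiosis (IME2, SPO11, DMC1, ZIP1, HOP1 and REC8), the level at 6 h was between 90.7 and 199.6 TPM in IME1 and between 65.0 and 75.2 TPM in the libraries labelled B112, against 1421 to 1779 TPM in sfGFP-IME1 and 5302 to 6064 TPM in sfGFP-B112. None of the 6 was at 0 in all 3 libraries of a strain. Both untethered strains were thus below both tethered strains in this sum.

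The RNA of the strains was checked against their labels first. IME1 was at 2022, 555 and 1387 TPM in the IME1 libraries at 0 h and at 4564, 2596 and 2542 TPM at 6 h. In the libraries labelled B112 it was at 9.76, 6.68 and 0.701 TPM at 0 h and at 1.42, 0.843 and 0.274 TPM at 6 h, so the presence and absence of IME1 followed the labels with no overlap at any time. UME6 RNA had values of 72.4, 60.7 and 66.1 TPM and 69.9, 57.9 and 48.5 TPM at 6 h, which overlapped (log2 fold change 0.12 ± 0.28 SE). The B112 sequence is not among the annotated transcripts, so its RNA was not measured. HIS3 was listed at 0 in all 24 libraries.

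The libraries labelled B112 instead stood out by GAL4, the activator of the galactose genes. GAL4 (SK1_16T00350.1) had levels in these libraries of 1422, 2124 and 2148 TPM (0 h), 1513, 1399 and 1500.4 TPM (2 h), 1345, 2081 and 1757 TPM (4 h) and 3010.1, 2778 and 2764 TPM (6 h). The IME1 libraries had 33.6, 25.4 and 33.5 TPM (0 h), 34.9, 36.9 and 43.9 TPM (2 h), 29.6, 26.9 and 27.1 TPM (4 h) and 28.5, 30.3 and 29.2 TPM (6 h). Every library labelled B112 was far above every other library, and the mean TPM was 38.1-fold higher at 2 h, where the gap was smallest, and 97.2-fold higher at 6 h. The tethered strains had between 10.4 and 33.1 TPM of GAL4 over all 4 times, sfGFP-B112 included. The study's strain list names, beside the untagged B112 strain, another untagged strain whose transgene at the same locus and promoter is a fragment of GAL4, and whether the libraries labelled B112 came from that strain was not tested. The strain is therefore called by its label throughout, and every difference below is a difference from libraries that also hold high GAL4 RNA.

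The targets of Gal4 were high in the same libraries. GAL1, the galactokinase, was at 8527, 7436 and 7082 TPM at 6 h in the libraries labelled B112 and at 15.9, 12.7 and 14.0 TPM in IME1 (539.6-fold). At 0 h it was at 74.0, 17459.5 and 3035 TPM against 18.7, 19.9 and 17.0 TPM, so the replicates labelled B112 differed widely among themselves while none overlapped with IME1. From 4 h on, all 3 were within a narrow range. GAL10 (the epimerase of the pathway) was 672-fold higher, GAL2 (the galactose transporter) 585-fold and GAL7 (the uridylyltransferase) 1194-fold in mean TPM at 6 h. Together these 4 genes took 2.31% to 2.83% of all TPM in the libraries labelled B112 at 6 h, and up to 5.05% in replicate 2 at 0 h, against at most 0.00953% in any IME1 library. GAL80, which encodes the inhibitor of Gal4, was at 168, 159.6 and 147 TPM against 38.3, 41.7 and 35.1 TPM at 6 h, with no overlap at any time, and its call at 2 h was lost without replicate 1 or 3 of IME1 or replicate 2 or 3 of the libraries labelled B112 (-1.40 to -1.15 on the log2 scale). Of 11 tested genes of a galactose list chosen after these values were seen, the number lower in IME1 was 9 at 0 h (against 3.02% of all genes), 6 at 2 h (0.163%), 7 at 4 h (0.271%) and 10 at 6 h (0.742%), with list medians of -2.14, -1.36, -1.82 and -2.10 on the log2 scale, where the medians of all genes were 0.02, -0.00, 0.01 and -0.01.

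**Figure D1:**
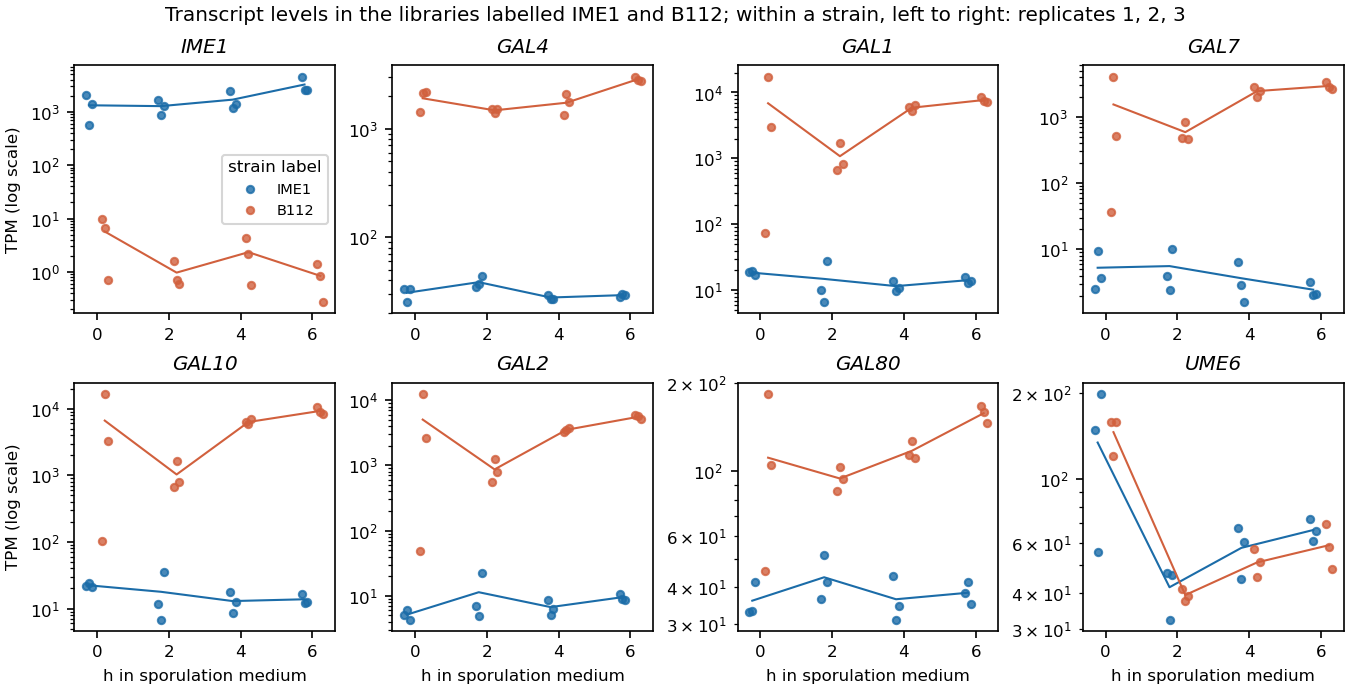
TPM on a log axis against hours in SPM for 8 genes, with 1 point for each library and lines through the means of the 3 replicates of the strains labelled IME1 and B112. IME1 separated the strains one way and GAL4, GAL1, GAL7, GAL10, GAL2 and GAL80 the other way at each time, while the points of UME6 overlapped.

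Strains were compared at each time with edgeR's quasi-likelihood test with Benjamini-Hochberg (BH) adjustment over the 5528 genes tested, in a fit of all 48 libraries of the table. A positive log2 fold change means higher in IME1, and a gene is said to differ at an adjusted p below 0.05. At 0 h, 644 genes differed (11.6%), of which 477 were higher in IME1 (8.63%) and 167 lower (3.02%). In 280 of the 644 the libraries did not overlap (these 280 are 5.07% of all genes tested). Whatever the test, the libraries did not overlap at 0 h in 842 of the 5528 genes (15.2%). At 2 h, 11 genes differed (0.199%), with 2 higher (0.0362%) and 9 lower (0.163%). At 4 h, 20 genes differed (0.362%), with 5 higher (0.0904%) and 15 lower (0.271%). At 6 h, 86 genes differed (1.56%), with 45 higher (0.814%) and 41 lower (0.742%). In 84 of the 86 the libraries did not overlap (these 84 are 1.52% of all genes tested). Whatever the test, the libraries did not overlap at 6 h in 1358 of the 5528 genes (24.6%). In a fit of the 24 untagged libraries alone, 23 genes differed at 6 h, 9 higher and 14 lower. Fewest genes thus differed at 2 and 4 h. IME1 was the gene that was higher at all 4 times, and 8 genes were lower at all 4 times: GAL1, GAL2, GAL4, GAL7, GAL10, GAL80 and the neighbouring gene models SK1_04T02330.1 and SK1_04T02320.1, to which no gene name is given in the sources used here. Without replicate 1 of IME1 the count at 2 h was 20, and without replicate 2 or 3 of the libraries labelled B112 the count at 4 h was 12.

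**Figure D2:**
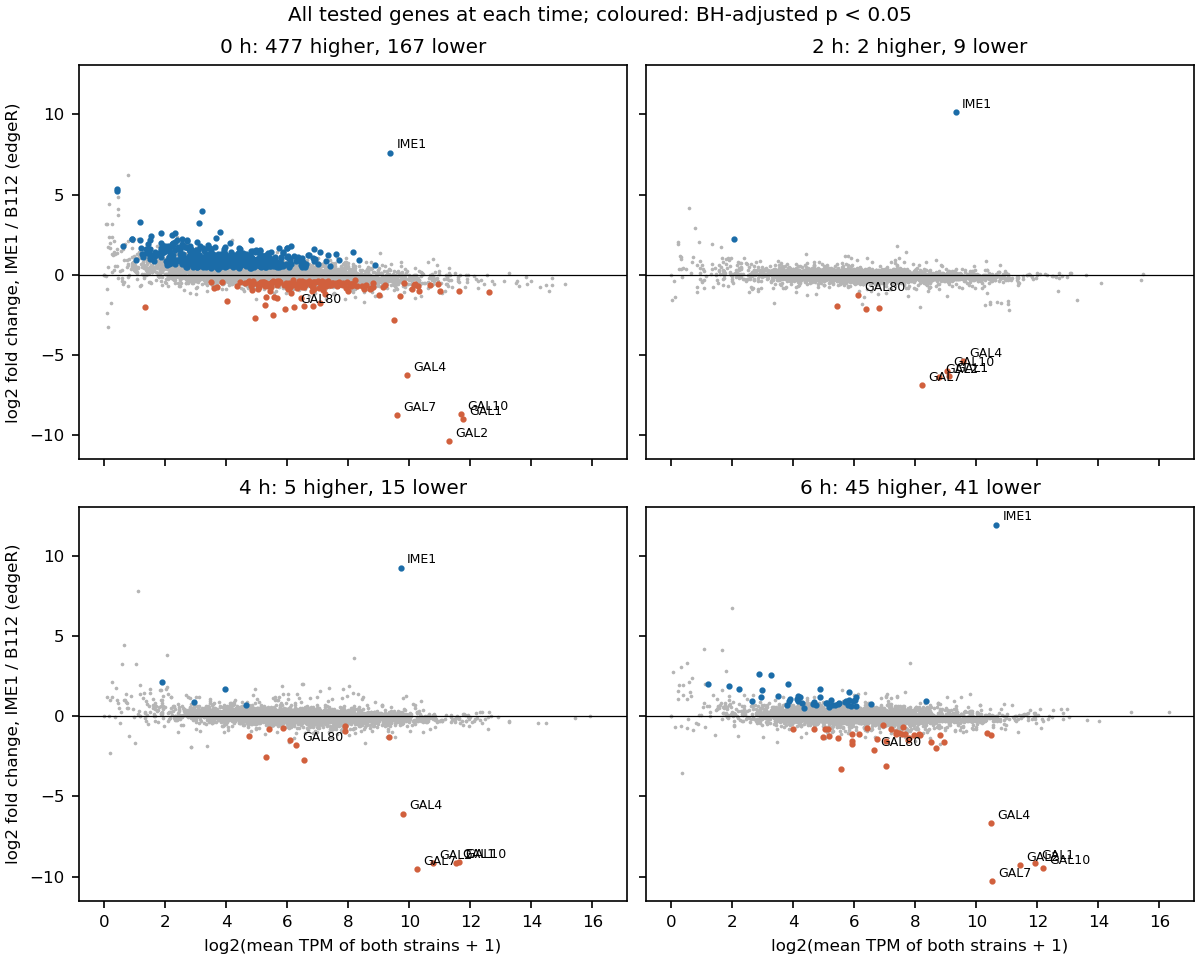
Log2 fold change of IME1 over B112 (edgeR) against log2 of the mean TPM of both strains plus 1, with 1 point for each tested gene and 1 panel for each time. Coloured points differ at an adjusted p below 0.05, with counts in the panel titles. GAL1, GAL2, GAL4, GAL7 and GAL10 lie far below the zero line at each time, while GAL80 lies nearer to it.

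The comparison asks what Ime1 does when no GFP tether holds it at Ume6. At 6 h, some genes of early meiosis and of cohesin were higher in IME1 than in the libraries labelled B112, while most of those listed did not pass the test. The members named by the rule that did encode strand exchange factors of meiotic recombination (HOP2, MND1, HED1, RDH54), cohesin and a telomere protein (SMC1, SMC3, REC8, NDJ1), a factor of the synaptonemal complex (ECM11), a recombination checkpoint protein (PCH2), the kinase IME2 and the RNA-binding protein PHO92. The differences were between 0.93 and 2.65 on the log2 scale, all relative to libraries with high GAL4 RNA. The 45 genes higher at 6 h also held genes of DNA replication and cohesion that are in none of the lists. Among them were CDC6 (1.08 ± 0.28 SE), PDS5 (1.03 ± 0.25) and MCM5 (0.77 ± 0.20), so the higher genes were not only meiotic ones. In such bulk samples a change in the share of cells that express a gene and a change in its RNA per cell cannot be told apart. Replicate 1 of IME1 had the highest level at 6 h of IME2, PHO92, HOP2, MND1, HED1, RDH54, SMC1, SMC3, REC8, NDJ1, ECM11, PCH2 and KAR4, and also the highest IME1 level.

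The study's list of 144 Ume6 targets matched 146 tested rows of the table. Of these, which the study chose by their response to depletion of Ume6 during growth in other libraries of this series and by binding in published data, 12 were higher in IME1 at 6 h (8.22%, against 0.814% of all genes) and 1 was lower. The median of the list was 0.25, beside -0.01 for all genes. The 12 higher members became 4 without replicate 1 of IME1, and 8 and 5 without replicates 2 and 3 of the libraries labelled B112, with list medians of 0.12, 0.25 and 0.24. At 2 h 1 member was higher (0.685%, against 0.0362% of all genes) and none lower. At 4 h none passed edgeR's test, with 19 members at an unadjusted p below 0.05 and 4 members past the threshold in DESeq2. At 0 h 11 members were higher and 9 lower (7.53% and 6.16%), against 8.63% and 3.02% of all genes, and without replicate 2 of IME1 these counts were 3 and 2. They were 2 and 5 without replicate 3 of the libraries labelled B112 and 13 and 23 without replicate 1 of IME1, and 10 and 15 without replicate 1 of the libraries labelled B112. Over all genes, 130 were higher and 88 lower of 5530 without replicate 2 of IME1. Of 5532 genes, 223 and 74 were so without replicate 3 of the libraries labelled B112. The counts over all genes were 1038 and 490 without replicate 1 of IME1, and 751 and 343 without replicate 1 of the libraries labelled B112. At each time most of the listed targets did not pass the test.

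PHO92, a reader of methylated RNA that acts in meiosis, differed at both 2 h and 6 h. Its level at 2 h was 9.76, 2.90 and 3.10 TPM in IME1 and 0.776, 1.06 and 1.16 TPM in the libraries labelled B112 (log2 fold change 2.21 ± 0.48 SE, adjusted p = 0.0254 in edgeR). At 6 h it was 22.7, 4.98 and 5.18 TPM against 2.03, 1.79 and 1.16 TPM (2.65 ± 0.45, adjusted p = 3.21e-04 in edgeR). Replicate 1 of IME1 lay far above the other IME1 replicates at both times, and the strains did not overlap at any of the 4 times. The call at 2 h was lost without replicate 1 of IME1 or without any 1 of the 3 libraries labelled B112 (log2 fold change 1.45 to 2.54 over the fits that leave out 1 library), and the call at 6 h was kept in all 6 such fits.

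HOP2 and MND1 encode the 2 subunits of a complex that helps Dmc1 to pair homologous chromosomes. HOP2 was at 26.3, 7.15 and 11.6 TPM at 6 h in IME1 and at 2.22, 2.62 and 2.10 TPM in the libraries labelled B112, a 6.49-fold difference in mean TPM (log2 fold change 2.59 ± 0.38 SE, adjusted p = 2.39e-05 in edgeR). At 2 h it was at 6.00, 4.41 and 3.5 TPM against 2.00, 2.00 and 3.11 TPM, and at 4 h at 11.3, 5.38 and 7.28 TPM against 3.06, 1.46 and 3.99 TPM. The strains were apart at 2, 4 and 6 h. MND1 was at 45.1, 13.1 and 6.34 TPM against 6.42, 4.08 and 4.30 TPM at 6 h, and the lowest IME1 library lay just below the highest library labelled B112 (2.04 ± 0.49, adjusted p = 0.0215 in edgeR). HED1, which acts in meiotic recombination, was at 53.1, 30.6 and 36.2 TPM against 16.6, 14.2 and 19.0 TPM (1.18 ± 0.21, adjusted p = 9.21e-04 in edgeR). Its libraries were also apart at 0, 2 and 4 h. RDH54, a DNA translocase that acts with Dmc1, was at 27.5, 12.8 and 13.7 TPM against 10.2, 8.67 and 8.18 TPM (0.93 ± 0.21). Of 12 strand exchange genes tested, these 4 were higher at 6 h (33.3%, against 0.814% of all genes) and none lower, with a list median of 0.72. Without replicate 1 of IME1, or replicate 2 or 3 of the libraries labelled B112, 2 of them were.

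IME2, the kinase, was higher in IME1 at 6 h, where the strains did not overlap, and did not pass the test at earlier times. At 0 h its level was 51.6, 266 and 99.2 TPM in IME1 and 147, 34.5 and 52.6 TPM in the libraries labelled B112, widely spread and overlapping. At 2 h it was at 17.5, 17.2 and 13.2 TPM and 14.0, 14.6 and 12.4 TPM, with overlap. At 6 h it was 82.1, 23.1 and 25.9 TPM against 13.2, 12.9 and 11.4 TPM (log2 fold change 1.73 ± 0.39 SE, adjusted p = 0.0141 in edgeR), so the 3 libraries labelled B112 lay close together and all IME1 libraries above them. In the tethered strains IME2 was at 1256, 947 and 943 TPM in sfGFP-IME1 and at 3344, 3697 and 3583 TPM in sfGFP-B112 at that time. The call of IME2 at 6 h was lost without replicate 1 of IME1 or without replicate 2 or 3 of the libraries labelled B112 (log2 fold change 0.94 to 2.03 over the fits that leave out 1 library).

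Cohesin, the ring that holds sister chromatids together, and the chromosome axis made another group. SMC3, a subunit used in mitosis and meiosis, was at 113, 58.0 and 79.4 TPM at 6 h in IME1 and at 39.2, 24.7 and 22.0 TPM in the libraries labelled B112 (1.49 ± 0.29, adjusted p = 0.00185 in edgeR). SMC1, its partner, was at 118, 64.1 and 82.3 TPM against 54.0, 35.0 and 34.2 TPM (1.04 ± 0.25). REC8, the meiotic kleisin, was at 38.0, 11.5 and 18.3 TPM against 9.80, 11.6 and 9.21 TPM, with 1 IME1 library below the highest library labelled B112 (1.07 ± 0.25). NDJ1, a telomere protein of meiotic prophase, was at 3.49, 0.843 and 1.95 TPM against 0.529, 0.541 and 0.352 TPM, from 4 to 26 counts in a library (2.03 ± 0.45). Of 11 axis and cohesin genes, SMC1, SMC3, REC8 and NDJ1 were higher at 6 h (36.4%, against 0.814% of all genes) and none was lower (list median 0.46). Without replicate 1 of IME1 or replicate 3 of the libraries labelled B112, 1 member was higher.

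ECM11 and PCH2 were the members of the crossover and synapsis list that differed at 6 h, both higher, 2 of 14 (14.3%, against 0.814% of all genes), and 1 of 14 without replicate 1 of IME1 or replicate 3 of the libraries labelled B112. ECM11, which promotes assembly of the synaptonemal complex, was at 9.35, 3.60 and 4.38 TPM against 0.953, 2.60 and 1.35 TPM (1.71 ± 0.35, adjusted p = 0.00432 in edgeR). PCH2, an ATPase of the meiotic checkpoint, was at 32.8, 18.9 and 19.8 TPM against 10.9, 10.7 and 7.17 TPM (1.26 ± 0.21, adjusted p = 2.59e-04 in edgeR). Both genes had no overlap between the strains at any of the 4 times. KAR4, a transcription factor of mating that also acts in meiosis, was at 88.2, 58.3 and 63.6 TPM against 41.7, 34.4 and 27.6 TPM (0.96 ± 0.23) and was likewise apart at each time. ZIP1 had values of 18.8, 14.0 and 13.2 TPM and 13.0, 12.5 and 11.4 TPM, with a log2 fold change of 0.25 ± 0.19 and an adjusted p of 0.816 in edgeR. SPO13 had a log2 fold change of 0.70 ± 0.27 (adjusted p = 0.255 in edgeR). None of the 11 double-strand break genes passed edgeR's test at 6 h, with 2 at an unadjusted p below 0.05 and 0 past the threshold in DESeq2.

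**Figure D3:**
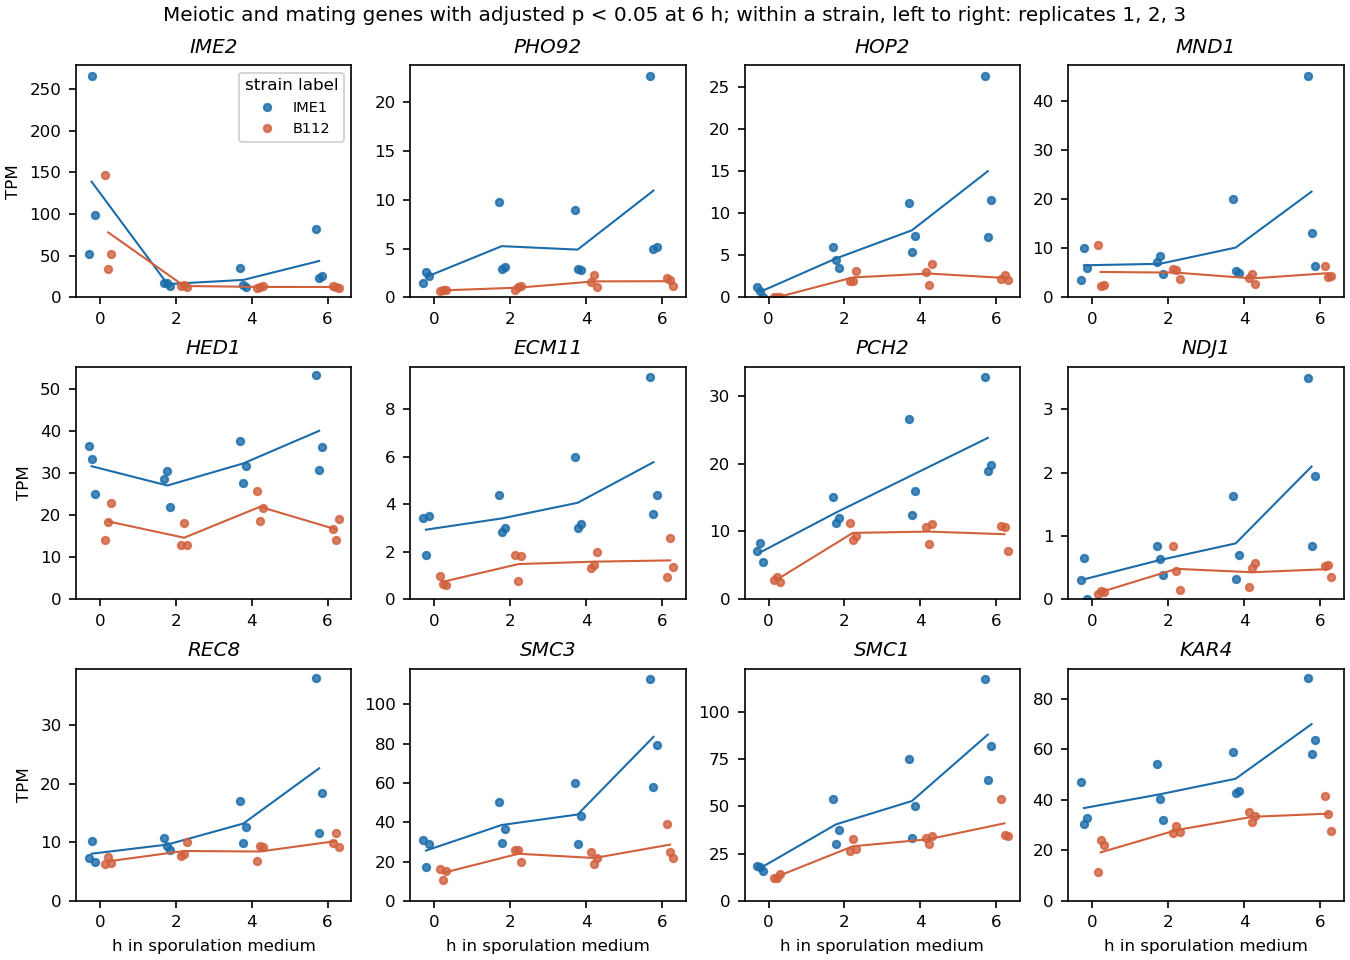
TPM against hours in SPM for 12 genes that differed at 6 h, with 1 point for each library and lines through the strain means. Replicate 1 of IME1 is the highest point at 6 h in all 12 panels, and the means of the libraries labelled B112 lie below those of IME1 at 6 h in each panel.

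NDT80 did not pass edgeR's test at any time, and the middle meiotic genes listed did not pass it at 2, 4 or 6 h. At 0 h 1 of the 39 listed was higher (2.56%, against 8.63% of all genes), and 0 without replicate 2 of IME1. NDT80 was at 18.8, 14.4 and 12.1 TPM in IME1 and at 11.4, 14.3 and 10.2 TPM in the libraries labelled B112 at 6 h (log2 fold change 0.27 ± 0.41 SE, adjusted p = 0.973 in edgeR). Of 39 middle meiotic genes, which Ndt80 activates, 0 passed edgeR's test at 6 h, with 4 at an unadjusted p below 0.05 and 1 past the threshold in DESeq2, and the list median was 0.27. The summed level of 6 markers of cells past the Ndt80 switch was 92.5 to 104.7 TPM in IME1 and 83.9 to 86.9 TPM in the libraries labelled B112, against 3559 to 5401 TPM in sfGFP-IME1. The untethered strains did not overlap in this sum, but both were far below sfGFP-IME1. Of 18 genes of the growing cell cycle, 2 were higher at 6 h (11.1%, against 0.814% of all genes), 6 had a positive log2 fold change and the list median was -0.19. None of the 18 passed without replicate 1 of IME1 or without replicate 2 or 3 of the libraries labelled B112, and 1 passed without replicate 2 of IME1.

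Which calls held without single libraries was checked for the named genes at 6 h. PHO92, HOP2, HED1, PCH2 and SMC3 kept their calls in all 6 fits that leave out 1 library. MND1, KAR4, RDH54 and SMC1, like IME2, lost them without replicate 1 of IME1 and also without replicate 2 or replicate 3 of the libraries labelled B112, with log2 fold changes over those fits of 0.98 to 2.45, 0.80 to 1.09, 0.53 to 1.13 and 0.81 to 1.25. REC8 lost its call without replicate 1 of IME1 or without replicate 1 or 3 of the libraries labelled B112 (0.52 to 1.39). NDJ1 (1.50 to 2.47) and ECM11 (1.23 to 2.13) lost theirs without replicate 1 of IME1 or replicate 3 of the libraries labelled B112. The direction was the same in each of these fits of these genes. In number, 29 genes differed at 6 h without replicate 1 of IME1, and 28 of them were among the 86. Without replicate 2 or replicate 3 of the libraries labelled B112 there were 33 and 27, all among the 86. In the fit of the 24 untagged libraries alone, PHO92, HOP2, PCH2 and SMC3 kept their calls, and HED1, MND1, RDH54, IME2, SMC1, REC8, NDJ1, ECM11 and KAR4 lost theirs with log2 fold changes of the same sign.

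Among the genes lower in IME1 at 6 h, those outside the galactose list included genes of amino acid synthesis. ARG4 (argininosuccinate lyase) was at 192, 251 and 311 TPM in IME1 and at 499.6, 754 and 962 TPM in the libraries labelled B112 (-1.62 ± 0.30, adjusted p = 0.00117 in edgeR), with no overlap. At 2 h the same gene was at 1169, 1657 and 1579 TPM against 1735, 1046 and 1345 TPM, where the strains overlapped, and at 4 h at 361, 311 and 516 TPM against 537, 1158 and 994 TPM (-1.30 ± 0.30, adjusted p = 0.0328 in edgeR). The levels at 6 h were thus below those at 2 h in both strains, and the strains were apart at 4 and 6 h. HIS4, an enzyme of histidine synthesis, was at 55.8, 60.6 and 90.9 TPM against 137, 208 and 223 TPM at 6 h (-1.51 ± 0.35). ARO4, an enzyme of the aromatic pathway, was at 94.1, 113 and 143 TPM against 194, 312 and 441 TPM (-1.51 ± 0.38), and HOM2, an enzyme of the threonine and methionine branch, at 155, 184 and 203 TPM against 287, 368 and 477 TPM (-1.13 ± 0.28). None of these 3 overlapped at 6 h. Of 41 tested targets of Gcn4, the activator of amino acid synthesis genes, 5 were lower at 6 h (12.2%, against 0.742% of all genes; ARG1 is the fifth, -1.04 ± 0.27) and none was higher, with a list median of -0.67. The 5 became 1 without replicate 1 or 2 of IME1 or replicate 2 or 3 of the libraries labelled B112 and 8 without replicate 1 of the libraries labelled B112, and the list median stayed between -0.71 and -0.50. ARG4 kept its call at 6 h in all fits that leave out 1 library, but at 4 h it lost it without replicate 1 or 2 of IME1 and without replicate 2 or 3 of the libraries labelled B112 (-1.54 to -1.08). In the fit of the 24 untagged libraries alone ARG4 kept its call at 6 h, and HIS4, ARO4 and HOM2 lost theirs, as did PGM2, GCY1 and LAP3. HIS4, ARO4 and HOM2 also lost theirs at 6 h without replicate 1 or 2 of IME1 and without replicate 2 or 3 of the libraries labelled B112 (-1.81 to -1.33, -1.78 to -1.13 and -1.31 to -0.87).

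MLF3 and PCL10, the second of which is in the galactose list, passed the threshold as lower in IME1 at 0, 4 and 6 h. MLF3 was at 168, 139 and 161 TPM against 342, 364 and 317 TPM at 6 h (-1.18 ± 0.18, adjusted p = 4.82e-05 in edgeR). PCL10, a cyclin of the kinase Pho85, was at 46.9, 46.4 and 42.8 TPM against 100.3, 97.9 and 87.8 TPM (-1.13 ± 0.16, adjusted p = 8.24e-06 in edgeR). Neither gene overlapped at 6 h, while both overlapped at 0 h, where they also passed the threshold (-0.68 ± 0.18 and -0.48 ± 0.16). The call of MLF3 at 0 h was lost without replicate 2 of IME1 or replicate 1 of the libraries labelled B112, and that of PCL10 without any 1 of the libraries but replicate 1 of those labelled B112. At 4 h MLF3 (-1.06 to -0.78) lost its call without replicate 2 of IME1, and PCL10 (-0.82 to -0.69) without replicate 3 of IME1 or replicate 2 or 3 of the libraries labelled B112. The gene models SK1_04T02330.1 and SK1_04T02320.1 were at 33.2, 27.6 and 24.3 TPM against 260.1, 238 and 202 TPM, and at 10.6, 7.09 and 8.85 TPM against 101, 80.6 and 69.1 TPM, at 6 h. These are 8.23-fold and 9.44-fold differences in mean TPM. Also in the galactose list are PGM2, GCY1 and LAP3. PGM2, the phosphoglucomutase that links galactose to glycolysis, was at 270.4, 247 and 351 TPM against 656, 590.1 and 595 TPM (-1.14 ± 0.27), GCY1 at 203, 121 and 197 TPM against 635, 693 and 621 TPM (-1.96 ± 0.51), and LAP3 at 173, 154 and 200.1 TPM against 388, 385 and 384 TPM (-1.19 ± 0.26). LAP3 lost its call without replicate 1 of IME1 (-1.34 to -1.10), PGM2 without replicate 1 or 2 of IME1 or replicate 2 or 3 of the libraries labelled B112 (-1.34 to -1.03), and GCY1 without any 1 of the 6 (-2.11 to -1.75).

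Outside meiosis, ARI1 and SK1_05T02600.1 passed the threshold as higher in IME1 at 0, 4 and 6 h. ARI1, an aldehyde reductase, was at 17.3, 24.6 and 26.1 TPM against 5.97, 6.21 and 7.29 TPM at 4 h (1.70 ± 0.29, adjusted p = 5.35e-04 in edgeR) and at 9.57, 16.6 and 17.8 TPM against 6.33, 6.16 and 5.44 TPM at 6 h (1.25 ± 0.30). The strains overlapped at 0 h and were apart at 2, 4 and 6 h. At 4 h it kept its call in all fits that leave out 1 library, while at 6 h, of these fits, only the one without replicate 1 of IME1 kept it, and the fit of the 24 untagged libraries did not (1.05 to 1.49). SK1_05T02600.1, which has no gene name in the sources used here, was 2.04-fold higher in mean TPM at 4 h and 1.98-fold higher at 6 h. At 4 h its call was kept only without replicate 1 of IME1 (0.80 to 1.08), and at 6 h only without replicate 3 of IME1 or replicate 2 of the libraries labelled B112 (0.72 to 1.35). At 0 h the call of ARI1 was lost without replicate 2 of IME1 or replicate 3 of the libraries labelled B112 (0.75 to 2.10), and that of SK1_05T02600.1 without replicate 2 of IME1 or replicate 2 or 3 of the libraries labelled B112 (0.91 to 1.15). AQY3, an aquaporin family member, had 61.0, 96.7 and 72.5 TPM against 50.9, 43.2 and 41.0 TPM at 6 h and was higher in the sums over the 4 times (0.75 ± 0.12, adjusted p = 0.0201 in edgeR).

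Summed over the 4 times within each strain and replicate number, 28 of 5535 genes differed (0.506%). Of these, 10 were higher in IME1 (0.181%) and 18 lower (0.325%), and none of the 28 overlapped. The labels do not say whether libraries of 1 replicate number come from 1 culture. Among the higher genes were HOP2 (1.67 ± 0.29), ECM11 (1.37 ± 0.24) and HED1 (0.72 ± 0.12), which like AQY3 lost their calls without any 1 of the 3 replicates labelled B112. The count was 81 without replicate 2 of IME1. Of the libraries labelled B112, it was 44 without replicate 1, 14 without replicate 2 and 17 without replicate 3. Whether the difference between the strains changed with time was tested as an interaction, which passed the threshold in 10 genes (0.181%). For ARG4 the log2 fold change went from 0.60 at 0 h to -1.62 at 6 h, and for ADH6, an alcohol dehydrogenase, from -0.10 to -1.53. These genes are named because they passed this test. SPE4 went from 2.59 at 0 h to 0.25 at 6 h and BMT6 from 2.25 to 0.00. Without replicate 2 of IME1 at 0 h alone, 0 genes passed the interaction test in edgeR, with 324 at an unadjusted p below 0.05. Over fits that leave out 1 replicate number, there were 121, 0 and 41 genes without replicates 1, 2 and 3 of IME1 and 64, 9 and 0 without those of the libraries labelled B112, with 297 and 253 genes at an unadjusted p below 0.05 beside the 0 counts. DESeq2 gave 63 genes with all libraries.

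**Figure D4:**
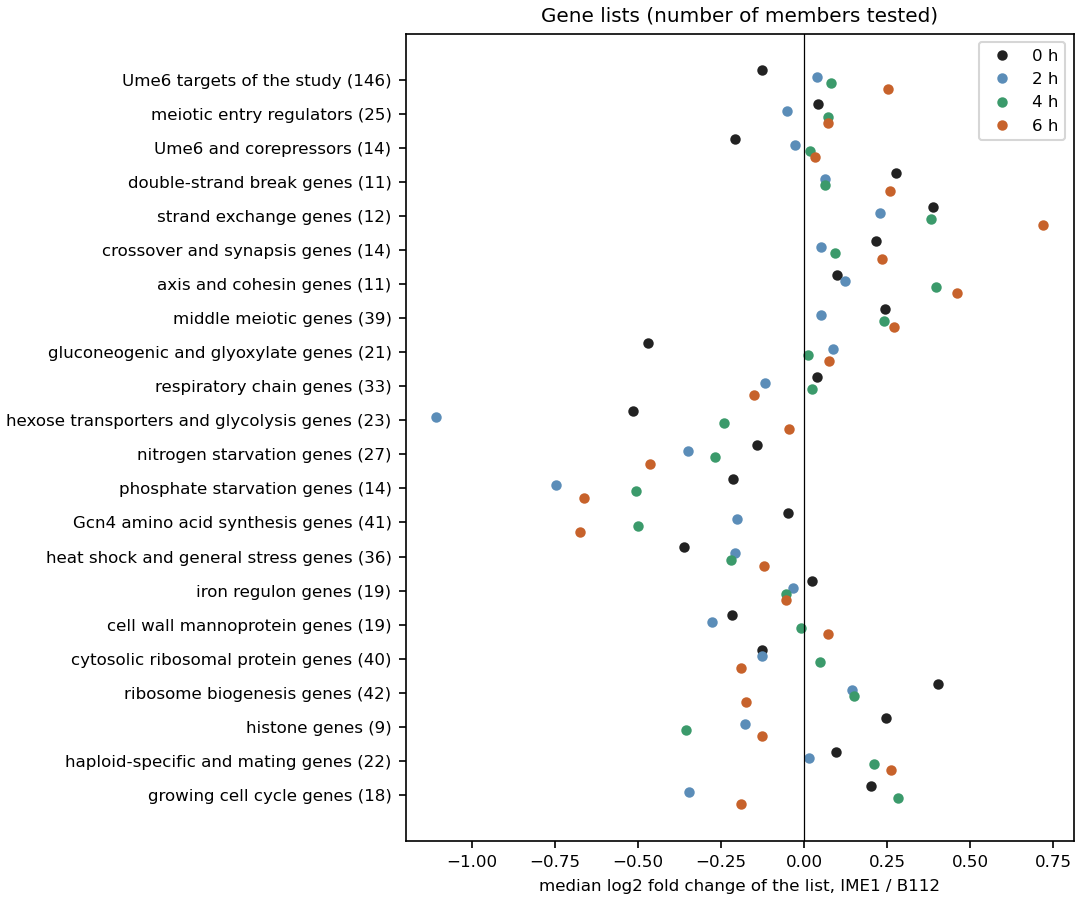
Median log2 fold change of IME1 over B112 for each of 22 gene lists, with 1 point for each time and the number of tested members in brackets. The strand exchange genes and the axis and cohesin genes lie to the right at 6 h, the targets of Gcn4 to the left, and several lists change side between 0 h and the later times.

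At 0 h the count of differing genes moved strongly with single libraries. The count was 218 without replicate 2 of IME1, of which 121 were among the 644, and 1528, 1078, 1094, 498 and 297 without replicates 1 and 3 of IME1 and replicates 1, 2 and 3 of the libraries labelled B112. In a fit of the 6 libraries alone, 0 genes passed edgeR's test, with 203 at an unadjusted p below 0.05, while DESeq2 in the full design gave 847. On log2(TPM + 1) in limma, 1318 genes were higher and 20 lower, where the median of all genes was shifted to 0.34. For the genes that follow, the strains overlapped unless stated, and those that lost their call without replicate 2 of IME1 are named as such.

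Of 22 tested genes of mating and of haploid cells, 6 were higher in IME1 at 0 h (27.3%, against 8.63% of all genes) and none lower. The list median was 0.10, beside 0.02 for all genes, and 13 of the 22 had a positive log2 fold change. Without replicate 2 of IME1 the count was 2 of 22, STE3 and AFB1, against 130 of all 5530 genes. The list median was then -0.03, beside -0.04 for all genes. Without replicate 1 of IME1 7 members were higher and 2 lower, and without replicate 1 of the libraries labelled B112 8 and 2. STE3, the receptor for a-factor, was at 2.61, 1.75 and 2.10 TPM against 0.413, 0.372 and 0.345 TPM (2.19 ± 0.43, adjusted p = 0.00132 in edgeR) with no overlap, from 4 to 37 counts. AFB1, a barrier protein for a-factor, was at 2.74, 6.95 and 3.51 TPM against 0.430, 0.903 and 1.26 TPM (2.01 ± 0.40), also with no overlap. Both kept their calls in all fits that leave out 1 library. STE18 and GPA1, subunits of the G protein of the mating pathway, were at 22.4, 203 and 32.2 TPM against 17.0, 16.7 and 20.5 TPM and at 4.35, 25.9 and 7.84 TPM against 4.28, 3.98 and 4.37 TPM. The strains were apart for STE18 and overlapped for GPA1. In both, replicate 2 of IME1 was far above the rest and its absence ended the call (0.40 to 2.14 and 0.31 to 1.46). The summed level of the 9 haploid markers found in the table, of 11 listed, was 90.4 to 332 TPM in IME1 and 72.8 to 84.4 TPM in the libraries labelled B112 at 0 h, with no marker at 0 in all 3 libraries of a strain.

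Among meiotic genes at 0 h, PCH2 was at 7.03, 8.21 and 5.47 TPM against 2.79, 3.34 and 2.53 TPM (0.91 ± 0.24, adjusted p = 0.0117 in edgeR) and ECM11 at 3.42, 1.85 and 3.51 TPM against 0.986, 0.621 and 0.576 TPM (1.63 ± 0.45), both with no overlap. Their calls were lost without replicate 3 of the libraries labelled B112 (0.76 to 1.11 and 1.30 to 2.04). SKI8, which acts in RNA decay and in meiotic break formation, was at 33.5, 70.8 and 46.0 TPM against 31.8, 21.5 and 25.9 TPM (0.52 ± 0.11) with no overlap and kept its call in all 6 fits. HOP2 and MEI5 were at 0 in all 3 libraries labelled B112 and had 7 counts at most in IME1, where replicate 3 was also at 0, so no fold is given. HOP2 kept its call only without replicate 3 of IME1, and MEI5 lost it without replicate 2 of IME1 or replicate 3 of the libraries labelled B112. SPO13 (1.44 ± 0.42), MEI4 (1.10 ± 0.37), REC102 (0.87 ± 0.28), MSH4 (1.17 ± 0.30) and SGO1 (1.30 ± 0.27) were highest in replicate 2 of IME1 and lost their calls without it. Only SGO1 was apart between the strains. SPO13 and REC102 also lost theirs without replicate 1 or 3 of the libraries labelled B112, MEI4 without replicate 1 or 2 and MSH4 without replicate 3 of them. HOP1 passed the threshold in the other direction (-0.45 ± 0.15), with TPM values that overlapped and a call that was lost without replicate 1 or 2 of IME1 or replicate 2 or 3 of the libraries labelled B112.

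SPE4, the spermine synthase, was at 1.78, 15.1 and 4.65 TPM against 1.19, 0.626 and 0.581 TPM at 0 h (2.59 ± 0.39), with no overlap and a call kept in all 6 fits, and at 15.8, 19.8 and 15.4 TPM against 15.5, 12.8 and 13.9 TPM at 2 h, where the strains overlapped and lay near or above the highest value of 0 h. RFC5, a clamp loader subunit, went from 2.05, 7.02 and 0.909 TPM against 0.571, 0.643 and 0.119 TPM at 0 h to 23.2, 22.0 and 18.8 TPM against 18.2, 21.2 and 19.4 TPM at 2 h, and although the strains were apart at 0 h, its call there was lost without replicate 2 of IME1 (1.68 to 2.78). BMT6 was at 1.23, 2.09 and 1.23 TPM against 0.0787, 0.496 and 0.230 TPM at 0 h. Its libraries were apart at 0 h and it kept its call in all 6 fits, on 1 to 17 counts in a library. MSN4, a stress activator, was at 27.4, 46.4 and 31.6 TPM against 21.1, 13.5 and 15.6 TPM (0.68 ± 0.14) with no overlap and kept its call in all 6 fits.

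Genes of gluconeogenesis and the glyoxylate cycle, which cells need to use acetate, were lower in IME1 at 0 h, 4 of 21 tested (19.0%, against 3.02% of all genes), with none higher and a list median of -0.47. Without replicate 2 of IME1 the count was 0 and the median -0.21, and without replicate 2 or 3 of the libraries labelled B112 the count was 2. Over all genes, 88 of 5530 were lower in the first of these fits, and 165 and 74 of 5532 in the others. PCK1, the first enzyme of gluconeogenesis, was at 1483, 1352 and 1883 TPM against 2629, 2244 and 2697 TPM (1.60-fold lower in mean TPM in IME1, adjusted p = 0.0406 in edgeR) with no overlap. MLS1, malate synthase, was at 926, 706 and 1287 TPM against 1867, 1276 and 1559 TPM (-0.98 ± 0.26), and it overlapped, as did CIT2 (-1.01 ± 0.33) and IDP2 (-0.61 ± 0.19). None of the 4 kept its call without replicate 2 of IME1 (-1.17 to -0.76, -1.25 to -0.68, -1.34 to -0.39 and -0.70 to -0.52). PCK1 and IDP2 also lost theirs without replicate 2 or 3 of the libraries labelled B112, IDP2 without replicate 1 of IME1, and CIT2 without replicate 1 of the libraries labelled B112. POG1 was lower in the fit (-0.70 ± 0.12) and kept its call in all 6 fits, although its TPM overlapped. FDH1, a formate dehydrogenase present as 2 copies that share reads and are uncertain, was at 111, 29.8 and 21.9 TPM against 13.3, 396 and 115 TPM for the copy SK1_16T00080.1, and both copies lost their calls without replicate 2 or 3 of IME1 or replicate 2 of the libraries labelled B112.

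Other lists had few or no members past the test after 0 h. At 2 h the 23 genes of hexose transport and glycolysis had a median of -1.11, and 0 of them passed edgeR's test, with 15 at an unadjusted p below 0.05 and 1 past the threshold in DESeq2. PHO5, the repressible acid phosphatase, was the member of the phosphate starvation list that was lower at 2 h (-2.11 ± 0.39), 1 of 14 (7.14%, against 0.163% of all genes). None of the 14 passed without replicate 2 of IME1 or replicate 2 of the libraries labelled B112. None of 40 cytosolic ribosomal protein genes and none of 42 ribosome biogenesis genes differed at 6 h in edgeR, with 0 at an unadjusted p below 0.05 and 0 in DESeq2. COS12 and YGL262W, which differed at 6 h (1.91 ± 0.33 and 1.67 ± 0.38), lie next to each other near a chromosome end, where families of similar genes share reads, and their values are uncertain.

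In the tethered strains, where GFP holds the activator at Ume6, most of the meiotic genes named at 6 h had log2 fold changes of the other sign at that time. The tethered sign was not the same at all times. At 2 h it was positive for IME2 (0.55 ± 0.38 SE), ZIP1 (1.10 ± 0.19) and SPO13 (1.38 ± 0.22), and at 6 h negative (-0.97, -1.07 and -1.01). The markers past the Ndt80 switch summed at 6 h to 3559 to 5401 TPM in sfGFP-IME1 and 299.9 to 1737 TPM in sfGFP-B112. The study reports a delayed rise of NDT80 in sfGFP-B112. Whether the signs at 6 h follow from a difference in stage was not tested. At 6 h the contrast of sfGFP-IME1 with sfGFP-B112 passed the threshold in 3143 genes, and the difference between that contrast and the untethered contrast in 2385. For HOP2 the tethered values were between 98.8 and 116 TPM in sfGFP-IME1 and 299.8, 278 and 302 TPM in sfGFP-B112, a log2 fold change of -0.65 ± 0.26 SE, which differed from the untethered one by -3.24 ± 0.46 (adjusted p = 1.33e-06 in edgeR). The lower of the 2 tethered strains was thus above every untethered library. PHO92 was the exception in sign on the fitted scale, at 0.24 ± 0.33 (adjusted p = 0.548 in edgeR), although its TPM was lower in sfGFP-IME1 (326, 289.8 and 284) than in sfGFP-B112 (499, 395 and 413), and the difference -2.41 ± 0.56 (adjusted p = 7.56e-04 in edgeR). SMC3 and SMC1 had tethered values of 25.0, 23.3 and 18.2 TPM against 82.3, 107 and 106 TPM and of 30.5, 29.2 and 23.2 TPM against 105, 140.0 and 129 TPM, so here the untethered IME1 libraries lay above those of sfGFP-IME1. For GAL4 the tethered values were 14.4, 11.5 and 10.4 TPM against 18.5, 16.3 and 19.7 TPM, and the difference between the contrasts was 6.85 ± 0.35 (adjusted p = 1.89e-17 in edgeR). ARI1 was higher with Ime1 in both contrasts (1.25 ± 0.30 untethered and 2.93 ± 0.31 tethered), while MLF3 and PCL10 were lower in both, at -0.93 ± 0.18 and -0.69 ± 0.16 tethered.

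**Figure D5:**
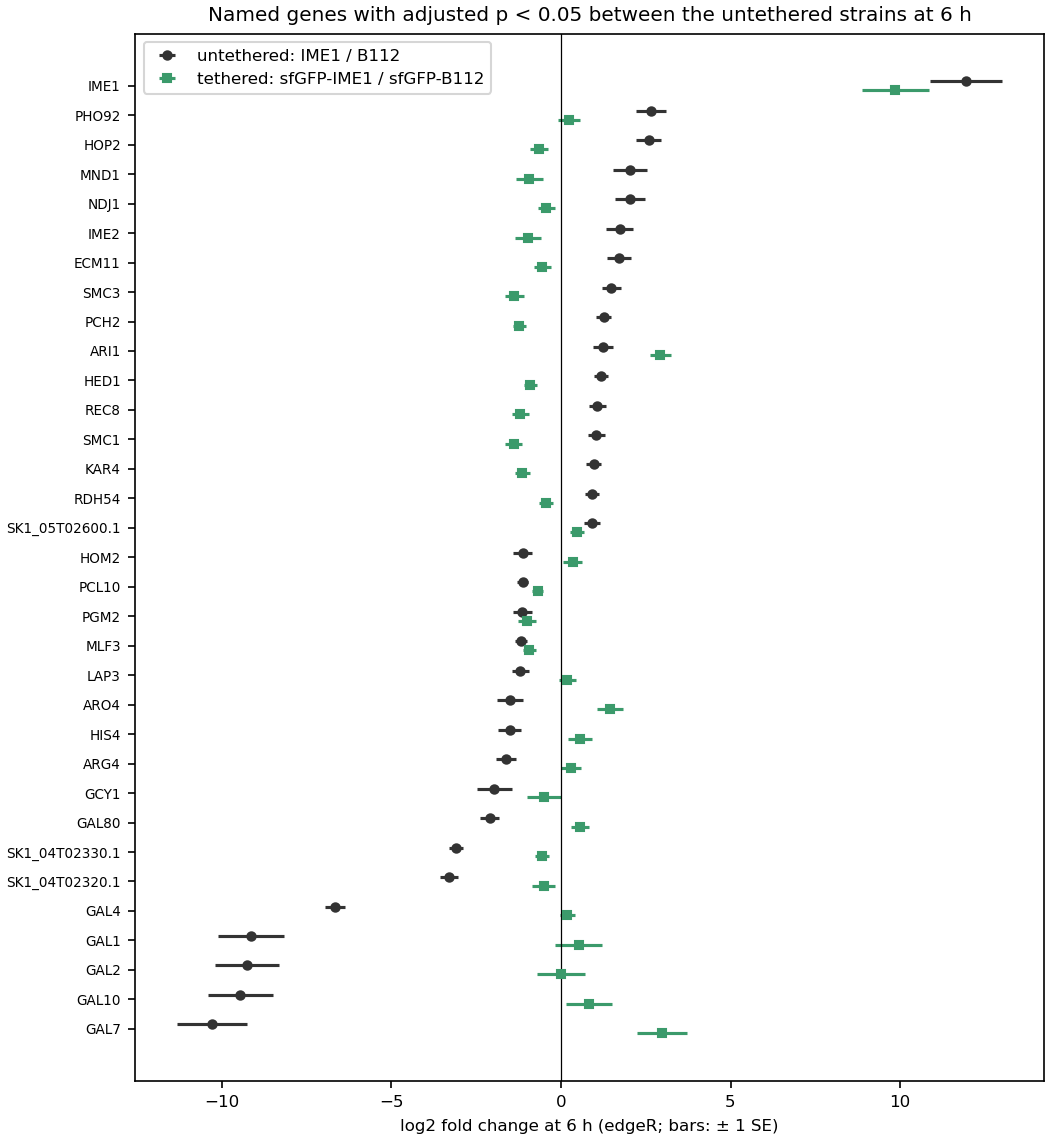
Log2 fold change at 6 h, with bars of 1 SE, for the named genes that differed between the untethered strains, as IME1 over B112 (circles) and as sfGFP-IME1 over sfGFP-B112 (squares). The meiotic genes lie right of zero in the untethered and mostly left of zero in the tethered contrast, and the GAL genes lie far left in the untethered contrast alone.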

How the data were processed

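PolyA RNA from SK1 cultures was sequenced by the authors as single-end reads and quantified with kallisto on SK1 transcripts, which gives the deposited estimated counts and TPM values per gene. HISAT2, SAMtools and StringTie are also named in the submitters' processing notes, and versions are not given in the sources used here. Per the study's methods kallisto was run without a strand option, so reads of overlapping or antisense genes cannot be told apart.

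Estimated counts were rounded to whole numbers and tested with edgeR 4.0.16 (TMM, low-count filter, quasi-likelihood test, BH adjustment) in R 4.3.3 on all 48 libraries of the table. Alternatives used DESeq2 1.42.0 and limma 3.58.1 (log2(TPM + 1)), other scalings, filters, sample sets and a replicate block, and left out each replicate in turn. The procedure was tested on simulated data. The study calls the 3 replicates biological. The p-values at a time rest on the spread between replicates taken over all strains and times of the table. The tethered strains are part of it, and libraries of different times count as separate.

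Named genes were the strain alleles and markers with IME2, SPO13, ZIP1 and NDT80, up to 5 genes per direction and time with the largest change past the threshold without overlap and with mean log2 CPM no lower than 2, genes past the threshold in 1 direction at 3 or more times (up to 20), and up to 4 members past it, by largest change, of each list with at least 3 such members. The galactose genes and some others were added after their values were seen. Members and lists were chosen with earlier results of these data known.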

Additional observations from a re-analysis of the deposited data

Results flagged for a closer look

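Only named genes that differed between the untethered strains at 6 h were considered here. In 27 of them, the contrast of the tethered strains differed from the untethered one by edgeR's test of the difference itself, with BH adjustment. Over all genes tested, this difference passed the threshold in 2385 of 5528. The untethered values that chose the genes are also part of the difference, so the 27 are not separate support for it. The tethered minus untethered log2 fold change was 13.28 for GAL7, 10.28 for GAL10, 9.66 for GAL1, 9.27 for GAL2, 6.85 for GAL4 and 2.66 for GAL80, and it was 2.79 for SK1_04T02320.1 and 2.54 for SK1_04T02330.1. For other genes that were lower in untethered IME1 it was 2.94 for ARO4, 2.08 for HIS4, 1.91 for ARG4, 1.48 for HOM2 and 1.38 for LAP3. ARI1, higher with Ime1 in both contrasts, had a difference of 1.68. For the genes of early meiosis and of cohesin it was -3.24 for HOP2, -2.97 for MND1, -2.87 for SMC3, -2.70 for IME2, -2.48 for PCH2, -2.46 for NDJ1, -2.44 for SMC1, -2.41 for PHO92, -2.27 for REC8, -2.25 for ECM11, -2.08 for HED1 and -1.38 for RDH54, and it was -2.10 for KAR4.

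The difference between the untethered strains changed with time in 10 genes. The adjusted p of the interaction in edgeR's quasi-likelihood test with BH adjustment was 0.0109 for AIM10. It was 0.0254 for ARG4, SPE4, SSO2 and NUF2, 0.0266 for COG5 and 0.0304 for INM1. It was 0.0314 for BMT6, ADH6 and ATX2. AIM10 had log2 fold changes of 1.55, 0.24, 0.34 and 0.19 at 0, 2, 4 and 6 h, INM1 of 1.72, -0.16, -0.44 and -0.90, and COG5 of 1.60, 0.07, 0.11 and 0.10. For ATX2 the values were 1.73, -0.10, 0.07 and -0.06. In these 4 genes the value at 0 h stood apart from the others, and 0 h is the time with the IME1 library that differed from the rest.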

How the results depend on the processing

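For named genes past the threshold in the main fit, 407 of the alternative values at 0 h stayed past it and 133 did not, against 117 and 13 at 2 h, 167 and 28 at 4 h, 342 and 86 at 6 h and 204 and 20 for the sums over the 4 times. For the sums only genes of some parts of the rule were taken. Named genes not past the threshold in the main fit were left out, so a gained call could not be counted. No alternative turned a direction. With an absolute log2 fold change over 1.5 required, 94 genes differed at 0 h, 12 at 4 h, 24 at 6 h and 11 in the sums. In the 24 untagged libraries alone, 251 genes differed at 0 h, 23 at 6 h (9 higher and 14 lower) and 10 in the sums, and the interaction passed in 0 genes in edgeR (313 at an unadjusted p below 0.05, 63 in DESeq2 on all libraries). In the 6 libraries of 0 h alone 0 genes differed in edgeR (203 at an unadjusted p below 0.05). Such fits at 2, 4 and 6 h gave 8, 16 and 122 genes, of which 8, 12 and 44 were among the 11, 20 and 86 of the main fit. DESeq2 gave 41 genes at 4 h, 137 at 6 h, 172 in the sums and 63 for the interaction. limma gave 1338 at 0 h on log2(TPM + 1), where the median of all genes moved to 0.34 at 0 h, 0.13 at 2 h and 0.12 at 4 h, and 49 on the means of each strain and replicate number. The mean of the 4 contrasts gave 639 genes.

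Leaving out 1 replicate gave 218 to 1528 genes at 0 h, 8 to 20 at 2 h, 12 to 30 at 4 h, 27 to 84 at 6 h, 14 to 81 in the sums and 0 to 121 for the interaction. Chosen after seeing the data, the sums without 0 h gave 68 genes. The interaction gave 0 genes in edgeR without the IME1 0 h library of replicate 2 (324 at an unadjusted p below 0.05) and 0 from 2 to 6 h only (56).

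Replicate numbers did not pair the libraries across strains: same-numbered libraries had correlations of their deviations of -0.594 to 0.153 at 0 h, -0.182 to 0.28 at 2 h, -0.156 to 0.0698 at 4 h and -0.135 to 0.258 at 6 h, and 1 of 3 correlated best with its own number at each time. Within a strain, such correlations between successive times were 0.118 to 0.767 in IME1. In the libraries labelled B112 they were -0.112 to 0.0869 from 0 to 2 h, -0.09 to 0.155 from 2 to 4 h and 0.251 to 0.518 from 4 to 6 h. With the replicate block, 596, 11, 28 and 93 genes differed at 0, 2, 4 and 6 h and 27 in the sums. With strain and replicate number as the block the interaction passed in 17. Low depth limits the values of NDJ1, ECM11, HOP2 and PHO92, which had 4, 6, 9 and 13 counts in the lowest library at 6 h.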
